A study of Mus musculus with 4 samples.

Results

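The genes for the interleukin-7 receptor and the other receptors of the common gamma chain family were examined in an accessibility map of lymphoid tissue inducer (LTi) cells. The set holds 10 genes, namely the receptor chains Il7r, Il2rg, Il2ra, Il2rb, Il4ra, Il21r, Il9r and Il15ra and the kinases Jak1 and Jak3. An island, which is a stretch of neighbouring enriched windows joined by the peak caller, was taken as a member when its nearest protein-coding gene end lay within 50 kb and belonged to one of these genes, or when it overlapped the gene. By this rule 16 of the 16584 islands of the table were members, and they lay at 7 of the 10 genes.

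The common gamma chain, the product of Il2rg, is a subunit shared by the receptors for interleukins 2, 4, 7, 9, 15 and 21. Each of these receptors pairs it with a chain that recognises its own ligand, and signals to the STAT transcription factors through JAK3, which binds the common gamma chain, and JAK1, which binds the signalling tail of its partner. Interleukin-7 sustains innate lymphoid cells and is required for the normal formation of Peyer's patches, where LTi cells gather stromal cells and lymphocytes into a follicle.

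DNase-seq, which sequences the ends of DNA cut by the nuclease DNase I, was run on 4 libraries of 300 sorted LTi cells each from Peyer's patches of C57BL/6 mice. The 2 groups were labelled Ctrl (Tcf7+/+) and Tcf7-KO (Tcf7fl/fl with a Cre recombinase), with 2 libraries each, and ages were not given in the sources used here. Cells were gated as positive for CD127 and CCR6 and as lacking lineage markers, KLRG1, NK1.1 and NKp46. CD127 is the Il7r protein, so the gate selected cells that carry a member's product. The labels do not say whether the controls carried Cre or whether cells of several mice were pooled.

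Per island the table gives 1 count of peak-side reads and 1 of control-side reads, and neither side is tied to a genotype or a library. No value below compares genotypes, there are no replicate values, and each fold is peak-side reads over control-side reads multiplied by 0.345, with an exact (Clopper-Pearson) 95% counting interval. Over all islands the sides held 425134 and 645087 reads. Called islands are those with an FDR under 0.05 in the authors' deposited table. The p-values behind it match, at all 16584 islands, the Poisson probability of more peak-side reads than observed. Leaving out the observed number makes them lower, so calls near the threshold may not hold with it included, which was not computed. Islands had at least 8 peak-side reads, so a gene without one is not shown to be closed. Of 11 marker genes of the LTi and ILC3 lineage (ILC3, group 3 innate lymphoid cell), 10 had an island, each with a call, and Ccr6 had none; Il7r, a member whose protein was a sort marker, is 1 of the 11. Of 26 marker genes of T, B, myeloid, NK and epithelial cells, 7 had an island and 6 a called one. Among all protein-coding genes 55.2% had an island and 47.6% a called one.

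The promoter sequences of the members differed widely in CpG content, and those that carry the contrast described next are shown. RefSeq promoter windows (assembly GRCm38.p6, which is mm10) run from 250 bases before to 50 bases after a start site, and 10 windows of 9 members matched by symbol. No window of Il2rb was in the RefSeq table. Capitals mark matches, on either strand, to any of 8 short motifs searched: CTTTGA (TCF/LEF), TTCNNNGAA (STAT), TGTGGT (RUNX), CCGGAAG (ETS), AGGTCA (ROR), GTAAACA (FOXO), TGACTCA (AP-1) and GGGCGG (GC box). The first 4 sequences lay in an island and the last 2 did not. They are at chr15:9529827-9530126 (Il7r, minus strand), chr8:71676133-71676432 (Jak3, plus), chr7:125552021-125552320 (Il4ra, plus), chr4:101265174-101265473 (Jak1, minus), chrX:101268206-101268505 (Il2rg, minus) and chr2:11705462-11705761 (Il15ra, plus), each printed 5′ to 3′ on its own strand.
Il7r: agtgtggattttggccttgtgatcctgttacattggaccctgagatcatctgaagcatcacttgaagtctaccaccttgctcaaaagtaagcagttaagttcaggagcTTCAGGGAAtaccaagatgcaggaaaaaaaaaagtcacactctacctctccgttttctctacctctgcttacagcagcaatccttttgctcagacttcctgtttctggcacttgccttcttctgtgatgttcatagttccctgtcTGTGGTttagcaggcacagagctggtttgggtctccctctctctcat
Jak3: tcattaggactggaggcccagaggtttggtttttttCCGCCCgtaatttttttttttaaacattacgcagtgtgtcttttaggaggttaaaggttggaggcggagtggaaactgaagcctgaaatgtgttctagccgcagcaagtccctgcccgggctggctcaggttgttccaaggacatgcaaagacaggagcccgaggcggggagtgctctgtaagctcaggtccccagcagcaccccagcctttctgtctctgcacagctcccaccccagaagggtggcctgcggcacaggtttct
Il4ra: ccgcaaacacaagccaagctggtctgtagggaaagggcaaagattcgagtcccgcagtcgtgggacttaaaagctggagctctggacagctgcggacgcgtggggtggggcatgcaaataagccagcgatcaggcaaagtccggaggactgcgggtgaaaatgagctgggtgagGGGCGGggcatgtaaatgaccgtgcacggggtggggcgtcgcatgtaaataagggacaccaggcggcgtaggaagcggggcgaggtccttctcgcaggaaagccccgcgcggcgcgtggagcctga
Jak1: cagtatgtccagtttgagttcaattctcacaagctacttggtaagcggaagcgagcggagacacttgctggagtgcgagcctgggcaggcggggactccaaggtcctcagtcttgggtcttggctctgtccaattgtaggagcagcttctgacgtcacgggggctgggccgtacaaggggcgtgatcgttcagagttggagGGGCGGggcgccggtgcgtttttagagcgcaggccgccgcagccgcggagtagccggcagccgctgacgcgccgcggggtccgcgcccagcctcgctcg
Il2rg: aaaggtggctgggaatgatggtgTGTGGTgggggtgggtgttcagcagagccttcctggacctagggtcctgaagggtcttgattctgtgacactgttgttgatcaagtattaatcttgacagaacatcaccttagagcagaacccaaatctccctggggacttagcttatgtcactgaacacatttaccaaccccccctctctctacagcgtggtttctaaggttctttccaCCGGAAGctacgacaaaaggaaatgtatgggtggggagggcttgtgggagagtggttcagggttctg
Il15ra: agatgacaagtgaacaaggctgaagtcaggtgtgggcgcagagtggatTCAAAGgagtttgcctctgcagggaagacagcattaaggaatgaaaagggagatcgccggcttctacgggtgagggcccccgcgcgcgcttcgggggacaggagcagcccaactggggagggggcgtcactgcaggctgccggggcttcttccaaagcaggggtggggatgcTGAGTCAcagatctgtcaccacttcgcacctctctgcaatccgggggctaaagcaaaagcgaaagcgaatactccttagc

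The Il7r promoter window lay in an island, which few windows with so little CpG did. Windows that touched any island, called or not, were counted. The Il7r window held 1 CpG dinucleotide and 45.7% G and C. Of all 5085 protein-coding promoter windows with 0 to 3 CpG, 128 (2.52%) touched an island, and 2.12% a called one. The call at Il7r is a narrow one, with an FDR of 0.0490 in the authors' deposited table, and it does not hold at an FDR under 0.01. Whether it holds when the p-value includes the observed read number was not computed. The windows of Il2rg and Il2ra fell in the same class, with 3 CpG each, and touched none. Jak3, with 9 CpG, lay in an island, as did 23.9% of the 5352 windows with 4 to 12 CpG, while the windows of Il21r (7 CpG) and Il9r (5 CpG) and the first window of Il15ra (6 CpG) did not. At the other extreme, the windows of Il4ra (25 CpG) and Jak1 (29 CpG) both lay in islands, as did 79.8% of the 5728 windows with 24 to 67 CpG. The islands at the windows of Il4ra (FDR 0.139) and Jak3 (FDR 0.173) were not called. The second window of Il15ra, with 15 CpG, touched no island, in a class of 5098 windows of which 72.4% did. Over all classes 4 of 10 member windows (40%) touched an island, beside 45.5% of all 21263 windows.

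**Figure D1:**
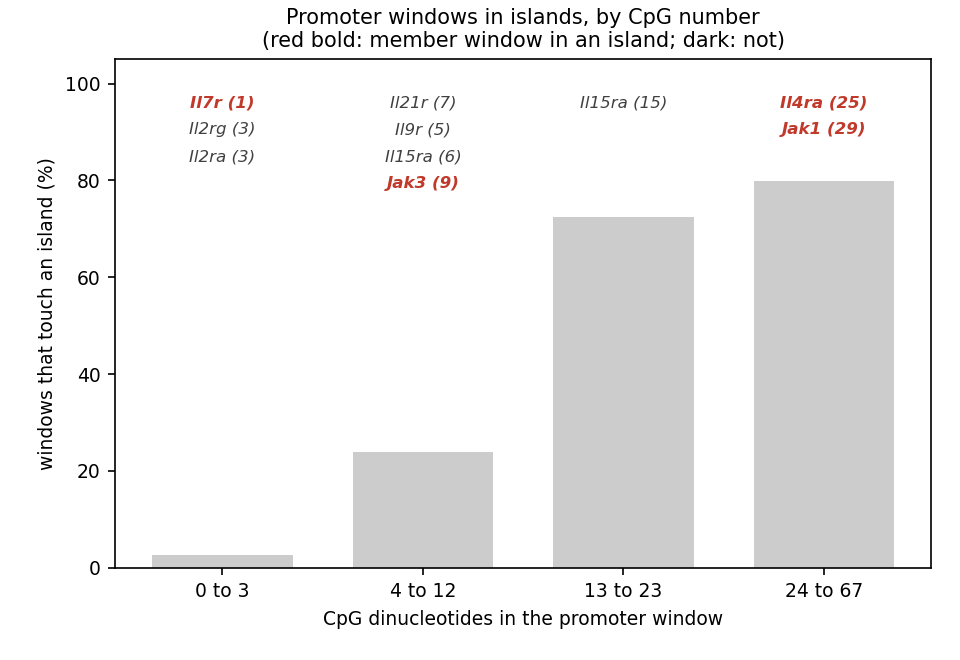
Share of protein-coding RefSeq promoter windows that touch an island (y axis, %) in 4 classes of CpG number (x axis), with the windows of the member genes written above their class and their CpG number in brackets. Il7r (red) stands in the class of 0 to 3 CpG, where 2.52% of windows touched an island.

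Each motif matched between 1 and 5 of the 10 member windows, and the Il2ra window held no match. The Il7r window held a STAT match, TTCAGGGAA, which reads as a match on both strands and begins 142 bases before the start site, and a RUNX match that begins 3 bases after it. STAT motifs occurred in 7.69% of all windows and in no other member window. RUNX motifs occurred in 15%, and in 4 of the 10 member windows (Il7r, Il2rg, Il21r and Il9r). Il2rg held a RUNX match and an ETS match, the latter 17 bases before its start site, and ETS motifs occurred in 11.6% of all windows and in 2 of the 10 (Il2rg and the first of Il15ra). Il4ra, Jak1 and Jak3 each held 1 match, to the GC box, which occurred in 46.2% of all windows and in 5 of the 10, the others being Il21r and the first of Il15ra. The only TCF/LEF match among the 10 member windows lay in the second window of Il15ra, beside 14.4% of all windows with one, and that window also held the only AP-1 match (4.66% of all windows). The Il21r window, which lay in no island, held RUNX, ROR, FOXO and GC box matches, the FOXO and RUNX matches sharing 2 bases. ROR and FOXO motifs occurred in 14.7% and 3.01% of all windows, and in no other member window. These matches describe letters in the windows and not binding.

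Il7r encodes the chain that binds interleukin-7 and lies on chromosome 15 (9506159 to 9529941, minus strand). It had 2 islands, both in the part of the gene nearest the start site. The island over the start site (9527001 to 9530800) held 14 peak-side against 26 control-side reads, for a fold of 1.56 (0.754 to 3.10). The authors' deposited table gives it an FDR of 0.0490, just inside the threshold. It was long and thin: at 3800 bp it carried 3.68 peak-side reads per kb. Of all gene-end islands 0.877% carried fewer per kb, and 16.6% held fewer peak-side reads. The second island (9522801 to 9525800) began 4.08 kb after the start site, within the gene. It held 15 against 13 reads, for a fold of 3.35 (1.49 to 7.64). The fold inside the gene was the higher, but the intervals of both islands overlap. An enhancer upstream of the start site is known at Il7r from T cells, and on that side the table listed no island for 49.8 kb beyond the start-site island. The next one there, at 9580601 to 9582400, lay 50.7 kb from Il7r, inside Spef2.

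Il2ra, the alpha chain of the interleukin-2 receptor (CD25), showed another layout. It lies on chromosome 2 (11642792 to 11693194, plus strand) and had 3 islands, all inside the gene and none over its start site. They began 10.2, 14.8 and 20.6 kb after the start site, at 11653001 to 11654800, 11657601 to 11660200 and 11663401 to 11664400. The first held 12 peak-side against 21 control-side reads (fold 1.66, 0.743 to 3.53). The second held 15 against 13 (fold 3.35, 1.49 to 7.64), and the third held 10 against 9 (fold 3.22, 1.18 to 8.96). The inner 2 islands thus had more peak-side than unscaled control-side reads. All 3 were called, the first at an FDR of 0.0421 in the authors' deposited table. The pooled fold of the gene was 2.50 (1.56 to 3.97), the highest value among the 7 genes, with an interval that overlaps those of the other 6.

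Il15ra, which encodes the alpha chain that presents interleukin-15, begins 11.98 kb beyond the end of Il2ra and had no island. The nearest to it was the third Il2ra island, 40.8 kb away. Within this pair of neighbours, whose products are related to each other, the islands thus all belonged to Il2ra.

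Il2rb encodes the beta chain shared by the receptors for interleukins 2 and 15. It lies on chromosome 15 (78479256 to 78511621), far from Il7r, and had 3 islands, all called. The one in the middle of the gene (78493201 to 78497400) held 41 peak-side against 63 control-side reads, more than any other member island, for a fold of 1.89 (1.24 to 2.84). Of all islands that lay within genes away from their ends, 96.5% had fewer peak-side reads and 59.99% fewer per kb, at its width of 4200 bp. The island at 78480801 to 78482800 held 16 against 17 reads (fold 2.73, 1.29 to 5.75). The third island (78514401 to 78515200) lay outside the gene, 2.78 kb from its higher-numbered end, and held 10 against 13 reads (fold 2.23, 0.876 to 5.51). The gene table gives no strand, and so neither of the gene's ends could be called its start.

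Il4ra, the chain that binds interleukin-4, lies on chromosome 7 (125552271 to 125579474, plus strand) and had 3 islands. The one over the start site (125549601 to 125553600) held 25 peak-side against 59 control-side reads (fold 1.23, 0.738 to 1.99) and did not pass the FDR threshold. It was the only member island whose interval lay wholly below the median fold of all islands, 2.01. The next island (125554201 to 125557200), 1.93 kb into the gene, held 20 against 23 reads (fold 2.52, 1.31 to 4.80), and its interval overlaps that of the start-site island. The third (125580001 to 125583200), 0.527 kb beyond the far end of the gene, held 24 against 42 reads (fold 1.66, 0.960 to 2.80).

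Il21r, the gene of the interleukin-21 receptor, begins 23.8 kb beyond Il4ra and had no island. An island 3.20 kb past its far end (125637601 to 125639200), with 11 and 14 reads, was nearer to Gtf3c1. As at Il2ra and Il15ra, 1 gene of a neighbouring pair held all the islands assigned by the rule. Of all protein-coding genes 44.8% had none.

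Il9r, which encodes the interleukin-9 receptor, lies on chromosome 11 (32187544 to 32205283, minus strand). It had 1 island (32205201 to 32206200), which held 27 peak-side against 39 control-side reads, for a fold of 2.01 (1.18 to 3.36). That island covers the 5′ end of Il9r in the gene table and an end of Snrnp25, a spliceosome gene, and the table cannot tell them apart. The start site of the promoter table lies inside the gene, so the island stood at -5.92 to -4.92 kb from it. No other island touched the gene. Il2rg, which encodes the shared chain, lies on chromosome X (101264385 to 101268255) and had no island. The nearest islands lay over an end of Med12, 5.75 kb away (22 and 27 reads, fold 2.36, 1.28 to 4.31), and over an end of Foxo4, 8.39 kb away (15 and 20 reads, fold 2.18, 1.04 to 4.47).

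The 2 kinases differed in their number of islands. Jak1, on chromosome 4 (101151974 to 101265282, minus strand), had 3 called islands. The one over its start site (101264401 to 101265800) held 35 peak-side against 53 control-side reads (fold 1.92, 1.21 to 2.99). It was compact, with 25 peak-side reads per kb over 1400 bp, and 87.9% of gene-end islands had fewer per kb and 76.5% fewer reads. An island 8.82 kb into the gene (101253401 to 101256400) held 13 against 19 reads (fold 1.98, 0.901 to 4.24). Upstream, at -28.4 to -24.4 kb from the start site (101289601 to 101293600), an island held 27 against 41 reads (fold 1.91, 1.13 to 3.18). The latter, 24.3 kb from the gene end, was the member farthest from a gene. Jak3, on chromosome 8 (71676383 to 71690577, plus strand), had 1 island, over its start site (71675401 to 71676800), which held 11 peak-side against 25 control-side reads (fold 1.28, 0.567 to 2.69). It did not pass the FDR threshold, and 4.33% of gene-end islands had fewer peak-side reads and 21.3% fewer per kb. The interval of Jak3 overlaps that of each Jak1 island.

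**Figure D2:**
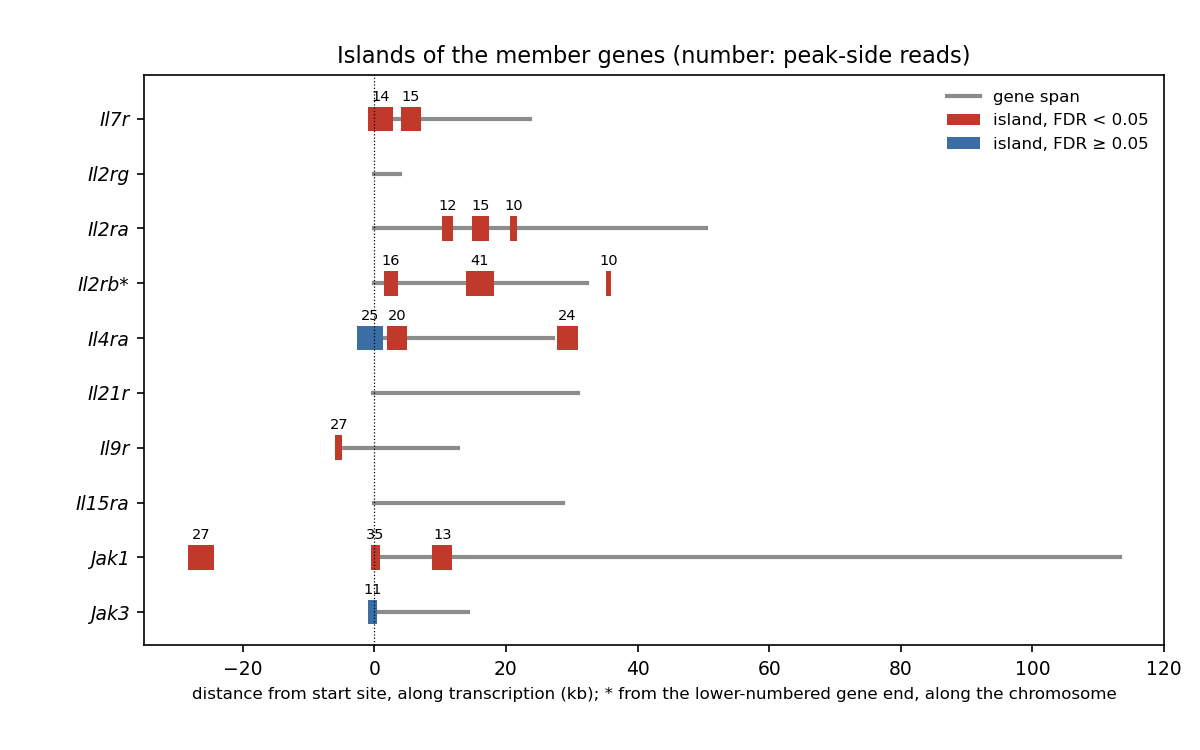
Position of the 16 member islands (boxes, with their peak-side reads) along the 10 genes (grey lines), in kb from the RefSeq start site in the direction of transcription; Il2rb, marked with a star, is drawn from its lower-numbered end along the chromosome. Il7r, Il4ra, Jak1 and Jak3 had an island over this start site and Il9r over the 5′ end of its gene, while the islands of Il2ra lay 10.2 kb or more inside the gene, and the 2 blue islands were not called.

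As a set, the member islands resembled the table they came from. The authors' deposited FDR called 14 of 16 (87.5%), beside 82.3% of all islands, and these shares are close. Stricter rules kept them near the table as well: an FDR under 0.01 called 9 of 16 (64.2% of all islands), the usual FDR together with a fold over 2 called 7 (50.4%), and 6 of the 7 members with at least 20 peak-side reads were called (89.9%). The deposited FDR takes the control side as known and rests on p-values that leave out the observed read number, which makes calls easier. The counting intervals of 5 of the 14 called members reach below 1. The median fold was 1.95 (interquartile range 1.66 to 2.57) beside 2.01 (1.61 to 2.62) over all islands. The median peak-side count was 15.5 (10 to 41) beside 18 over all islands, and the median width was 2800 bp beside 1800 bp. All 16 folds were over 1, as were those of all but 277 islands of the table. Among the 120 pairs of member islands no pair had intervals that were apart, and at 10 to 41 reads these intervals are wide. Overlap of intervals does not test a difference. Differences between single members were not tested, and their folds were not ranked.

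**Figure D3:**
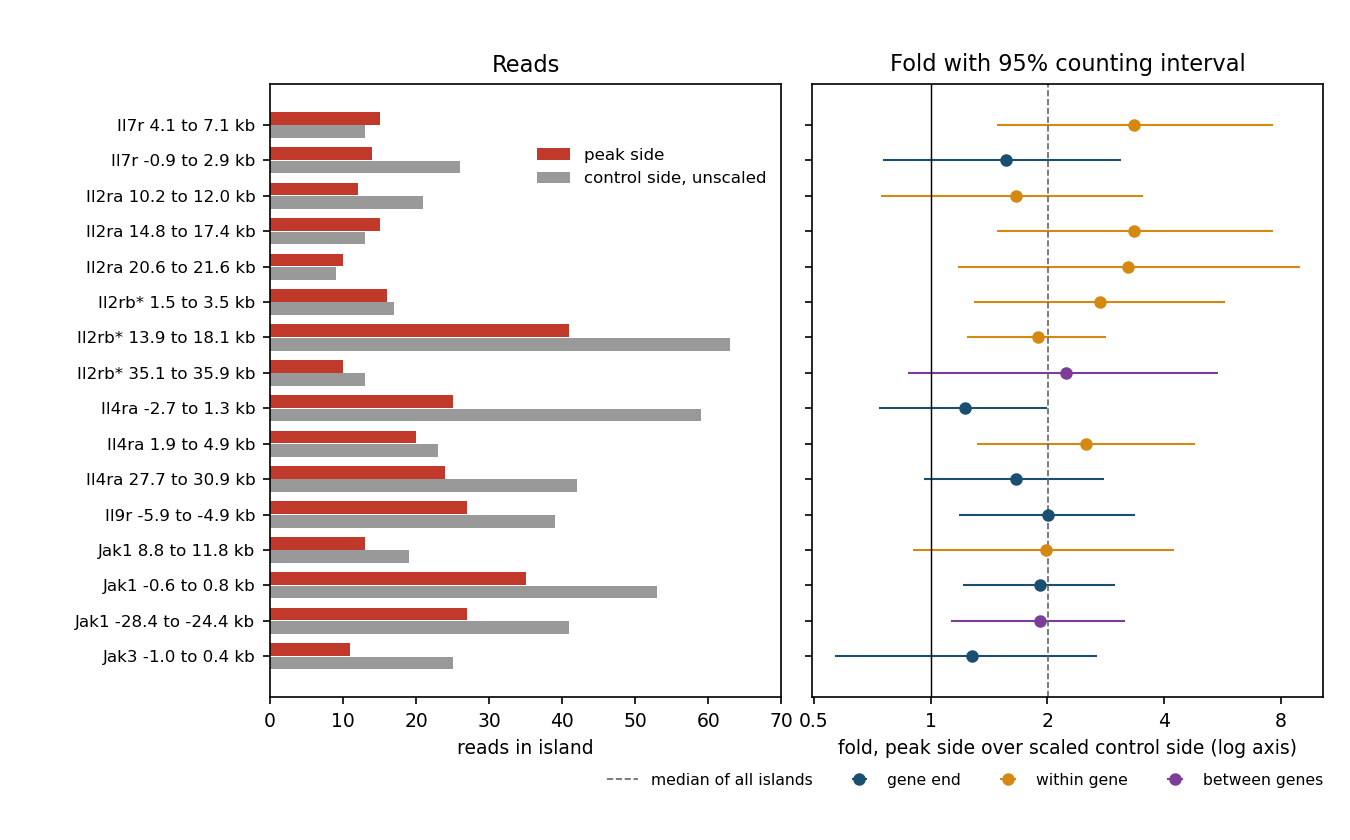
Left, reads of the 16 member islands on the peak side and on the unscaled control side; right, the fold of each on a log axis with its 95% counting interval, coloured by place, with kb from the start site in the row names (Il2rb, starred, from its lower-numbered end). All intervals overlap one another, and 15 of the 16 span the median of all islands (dashed, 2.01).

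Member islands inside genes had a higher median fold than those at gene ends. Away from gene ends but within genes lay 8 of the 16 (50%), beside 24.3% of all islands, at a gene end (within 1 kb) lay 6 (37.5%), beside 55.7%, and 2, both called, lay between genes (82.8% called in the table). The islands within genes were those of Il2ra, 2 of Il2rb and 1 each of Il7r, Il4ra and Jak1, and all 8 were called, beside 85.5% of such islands in the table. Their median fold was 2.63, beside 2.34 for all islands within genes. The 6 gene-end islands had a median fold of 1.61, beside 1.86 for all gene-end islands, and 4 of them were called, beside 80.8%. In Il7r and in Il4ra the island inside the gene thus had a higher fold than the one over the start site, while in Jak1 the folds were 1.98 and 1.92. No test was made of these differences, and reads moved with place as well: the member islands at gene ends had a median of 24.5 peak-side reads and those within genes 15. The part of read depth in the difference was not tested.

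**Figure D4:**
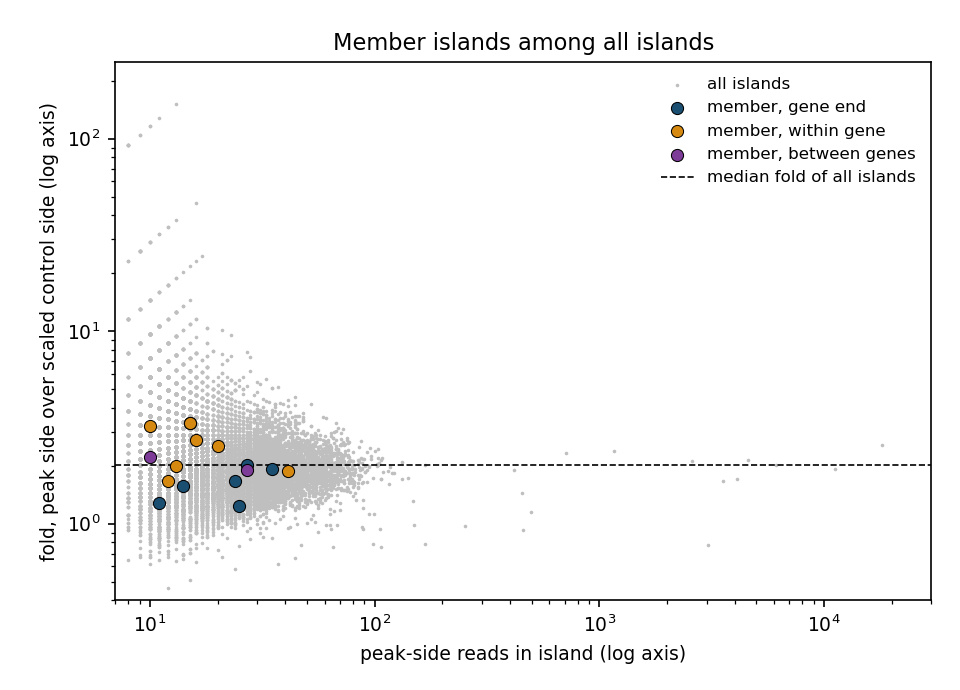
Fold (y axis, log) against peak-side reads (x axis, log) for all 16584 islands (grey) and the 16 member islands (coloured by place); an island of Il7r and one of Il2ra, with 15 and 13 reads each, share a point. The members lie between 10 and 41 peak-side reads and on both sides of the median fold of 2.01, with 5 of the 8 islands within genes above it and those at gene ends at or below it.

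The order of the genes by peak-side reads depended on whether the reads were summed or taken per kb of island. By summed peak-side reads Jak1 led with 75, followed by Il4ra (69), Il2rb (67), Il2ra (37), Il7r (29), Il9r (27) and Jak3 (11). Per kb of island the shared Il9r island led with 27.0 reads, followed by Il2rb (9.57), Jak1 (8.93), Jak3 (7.86), Il2ra (6.85), Il4ra (6.76) and Il7r (4.26). Il7r, for whose protein the cells were sorted, was thus last of the 7 by reads per kb, with its 29 reads spread over 6.8 kb of island. Both orders rest on 11 to 75 reads per gene and carry no counting error, and differences in them were not tested. They leave out the control side, and reads per kb also depend on the widths of the islands, so neither order ranks accessibility. The pooled folds were 2.16 (1.29 to 3.58) for Il7r, 2.09 (1.503 to 2.89) for Il2rb, 1.93 (1.42 to 2.60) for Jak1 and 1.61 (1.18 to 2.18) for Il4ra.

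Most other genes of the pathway had an island. Of 30 such genes 25 (83.3%) had an island, beside 7 of the 10 members (70%) and 55.2% of all protein-coding genes under the same rule, and no test of these shares was made. By the authors' deposited FDR 25 of the 30 (83.3%) had a called island, beside 6 of the 10 members (60%) and 47.6% of all protein-coding genes. Among genes with an island, all 25 had a called one, beside 6 of the 7 members (85.7%) and 86.4% of all such genes. All 5 STAT genes, all 6 feedback genes and all 8 genes of PI3K signalling and survival had one. The most reads lay at Bcl2, the survival gene that interleukin-7 sustains in lymphocytes (6 islands, 127 and 154 reads, pooled fold 2.39, 1.88 to 3.05), and at Pik3r1, a regulatory subunit of PI3K (6 islands, 118 and 154 reads, 2.22, 1.73 to 2.84). The feedback inhibitors Socs1 and Socs3 each held 111 peak-side reads (fold 2.28, 1.76 to 2.95, and 2.10, 1.63 to 2.70, respectively). Among ligands Il2, Il9 and Il21 had 1 island each and Il4, Il7, Il15 and Tslp none, and Il13ra1 had none. Crlf2, which pairs with the Il7r chain to bind TSLP, had 1 island that held 85 against 140 reads (fold 1.76, 1.33 to 2.32). The remaining JAK genes, Jak2 and Tyk2, had 46 and 39 peak-side reads, beside 75 for Jak1 and 11 for Jak3.

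Receptors of other cytokines gave similar shares. Of 23 such genes, 16 (69.6%) had an island, beside 5 of the 8 receptor chains of the common gamma chain family (62.5%). Among all protein-coding genes 55.2% had one. The median fold of the 34 islands of the other receptors was 2.23, beside 2.12 for the 12 islands of the receptor chains. Of the 34, 31 were called, beside 11 of the 12 and 82.3% of all islands. All 4 receptors of the interleukin-1 and interleukin-17 families had an island, and among type I and II cytokine receptors 12 of 19 did. Il10ra, Il12rb1, Il12rb2, Il5ra, Csf2rb, Osmr and Epor had none. Csf2ra had the most peak-side reads (176, with 396 on the control side, pooled fold 1.29, 1.07 to 1.54), followed by Il1r1 (129 and 103, 3.63, 2.78 to 4.75) and Ifnar1 (85 and 121, 2.04, 1.53 to 2.71). The interval of Il1r1 overlaps those of Il7r, Il2ra, Il2rb and Il9r and lies above those of Il4ra, Jak1 and Jak3. An overlap does not show that 2 folds are alike, and differences between these genes were not tested.

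The level of all folds rests on the scaling of the control side. With the reads in all islands as the basis of the scaling, the median log2 fold of the table moved by -0.93. That basis sets each island against all islands together, so it does not ask whether an island is enriched over the control side. No member island then passed the two-sided exact binomial test (lowest adjusted p = 0.579, Benjamini-Hochberg over all islands), beside 0.398% of all islands. With that scaling but the authors' kind of test, an upper-tail Poisson test, again no member passed (lowest adjusted p = 0.111), 3 had an unadjusted p under 0.05, and 9.19% of all islands passed. With the authors' scaling but the binomial test, 9 of the 16 passed, beside 53.6% of all islands. The latter 2 combinations were chosen after seeing the data. Fold relative to the median of all islands does not depend on the scaling, and it ran from 0.612 at the start site of Il4ra to 1.67 within Il7r and Il2ra, with a median of 0.971 over the members.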

How the data were processed

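Chromatin accessibility was measured by DNase-seq in 4 libraries of sorted cells, and the values used here come from 1 table that covers the series. The authors used Bowtie2 2.4.2 and SICER 2.0 with genome build mm10, per the submitters' processing notes. Per the file headers, the authors deposited for each island a position, unnormalized counts of peak-side reads and of control-side reads, a p-value, a fold (ratio) and an FDR (q-value). All 16584 deposited folds (relative tolerance 1e-06) follow from both read counts when the control side is multiplied by 0.345. For this, a control-side count of 0 was replaced by 0.25. No header or label ties a side to a library, so the planned comparison of genotypes was not run.

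Islands were assigned with a RefSeq gene table of GRCm38.p6 holding 21900 protein-coding genes, to the nearest gene end (ties kept) within 50 kb and to any gene they overlap. Fold intervals are exact (Clopper-Pearson, 95%, conditional on the summed reads), and cover counting error only, and reads that carry no molecular identifier may repeat a molecule. As an alternative, each island's share of peak-side reads was compared with the share over all islands by a two-sided exact binomial test with Benjamini-Hochberg adjustment over all islands. Scaling and test were also changed singly, added after seeing the data. The functions were tested on simulated data. Python 3.11.15, scipy 1.17.1 and pandas 2.3.3 were used. Members, lists, motifs and tests were chosen with earlier results of these data known, and the CpG classes after the islands were seen. Some genes of the marker and receptor lists are not reported here. All member islands and all members without one are named. In the pathway and receptor lists the genes named are the 3 with most peak-side reads and those without an island, and other genes named were chosen after their values were seen. Likeness between genes was not computed, since both read columns give no pattern over samples.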

Additional observations from a re-analysis of the deposited data

How the results depend on the processing

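No member island was called when read totals over all islands set the scaling of the control side. That scaling sets each island against all islands together, so fewer calls are built into it. Against the share of peak-side reads in all islands, the two-sided exact binomial test with Benjamini-Hochberg adjustment called 0 of 16 member islands in place of 14. It called 0.398% of all islands. No member had an unadjusted p under 0.05 either, beside 1585 of all 16584 islands. Changing 1 choice at a time was added after seeing the data. The upper-tail Poisson test called 0 with that scaling (3 at an unadjusted p under 0.05), beside 9.19% of all islands. The binomial test at the authors' scaling called 9 of 16, beside 53.6% of all islands. The median fold of the members was 1.02 with the scaling by read totals and 0.971 with the median ratio, in place of 1.95, and the pooled fold of Il4ra was 0.844 in place of 1.61; lower folds are built into both scalings. An FDR under 0.01 in the authors' deposited table left 9 called member islands (64.2% of all islands), and an FDR under 0.05 together with a fold over 2 left 7 (50.4%). Of the 7 members with at least 20 peak-side reads 6 were called, beside 89.9% of 7230 such islands. With gene-end islands alone there were 6 member islands in place of 16, since fewer islands count. Windows of 10 kb, gene bodies alone and distances from island midpoints left 15, 13 and 15. The comparison of genotypes and fits without single libraries were not run, since no column is tied to a library. No paired analysis was possible because each side is a single column without replicates. Counts of 10 to 41 peak-side reads limit each fold: the upper bound of a member's interval was a median of 4.28 times its lower bound.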

Other observations

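The receptor genes without an island lay near genes that had one. Around Il2rg, islands were present at Med12, Foxo4 and Snx12, and all 4 of the nearest were called in the authors' deposited table, with folds from 2.18 to 4.64. Beyond Il15ra, an island over the ends of Fbh1 and Ankrd16, 42.6 kb away, held 64 peak-side against 110 control-side reads (fold 1.69, 1.22 to 2.32). Around Jak3, the nearest islands outside the gene were 2 assigned to Unc13a, 7.38 and 15.2 kb away, with 11 and 14 peak-side reads and folds of 1.52 (0.662 to 3.30) and 1.45 (0.706 to 2.85). Neither was called, as was also the case for the island of Jak3 itself. The next island, assigned to Fcho1 and 32.2 kb from Jak3, held 18 against 16 reads (fold 3.26, 1.57 to 6.84) and was called.

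Of all 21887 protein-coding genes outside mitochondrial DNA, 5.80% had 3 or more islands by the rule used here. Among the 10 members 4 did, namely Il2ra, Il2rb, Il4ra and Jak1. Some genes of the pathway and receptor lists did as well, with 6 islands each at Bcl2 and Pik3r1 and 7 at Il1r1, though most genes of those lists did not. The rule counts every island that overlaps a gene, and gene length, 113 kb for Jak1 and 50.4 kb for Il2ra, was not taken into account. The members were chosen with earlier results of these data known, and no test was made of this share.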
